A study of Mus musculus with 12 samples.

Results

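Mouse chondrocytes transfected with an F101L mutant SIRT5 plasmid were compared with chondrocytes that received a wild-type plasmid. The comparison used 8 of the 12 RNA libraries of the series, chosen by their treatment labels: 4 labelled WT and 4 labelled SIRT5F101L mutant. All 57010 gene identifiers (IDs) of the count tables were considered, and 14253 passed the filter on low counts. Every library came from primary chondrocytes of wild-type mice, and poly(A)-selected RNA was sequenced as paired reads. The remaining 4 libraries carry the treatment label Control. They entered the fit so that all groups shared an estimate of the spread, and what those cells received is not given in the sources used here. The WT plasmid was read as wild-type SIRT5, which the labels do not spell out. In the one-letter code of amino acids F101L names an exchange of phenylalanine for leucine. Strain, age, promoter and vector are also not given. Nothing in the labels says whether libraries of a group came from separate animals or cultures, so p-values measure only the spread between these libraries, which may be technical. Replicate numbers name libraries in order of deposition and pair nothing.

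SIRT5 is a sirtuin that sits mainly in mitochondria and uses NAD to remove malonyl, succinyl and glutaryl groups from lysines. Its known substrates include enzymes of glycolysis, fatty acid oxidation and the urea cycle. Chondrocytes build cartilage from type II collagen fibrils, with types IX and XI collagen on and in them, and from aggrecan. Under inflammatory signals they make less of these and more of the proteases, nitric oxide synthase and interleukins that break cartilage down. The series asks, by its title, how SIRT5 and lysine malonylation act on chondrocyte metabolism and osteoarthritis.

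Total counts ran from 15288294 to 19713318 in the WT libraries and from 15095357 to 24242139 in the SIRT5F101L libraries. Levels are given in CPM, the count scaled to library size, with edgeR's TMM factors. The 2414 IDs of the X chromosome, 1547 of the Y chromosome and 37 of the mitochondrial genome were at 0 counts in every library, so the comparison covers autosomal genes. The chondrocyte genes Col2a1, Acan and Sox9 were detected in every library. The summed level of 10 chondrocyte markers was 7967 to 9951 CPM in Control, 2229 to 2381 CPM in WT and 1779 to 1996 CPM in SIRT5F101L. The 9 fibroblast markers summed to 18406 to 21876 CPM in Control, 7548 to 8625 CPM in WT and 7771 to 8698 CPM in SIRT5F101L. For the 9 osteoblast markers the sums were 1895 to 2071, 13289 to 16535 and 14466 to 16805 CPM. In the plasmid libraries both sums were above that of the chondrocyte markers. However, 5 of 9 osteoblast and 2 of 9 fibroblast markers stayed under 1 CPM in every plasmid library. Such sums rest on the abundant genes of a list and do not rank cell types. Of 6 erythroid markers, 5 had no count in any WT or SIRT5F101L library.

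SIRT5F101L replicate 1 stood apart from the other SIRT5F101L libraries. On the first principal component of log2 CPM over the 8 plasmid libraries, which held 28.7% of the variance, it lay at -20.2. SIRT5F101L replicates 2, 3 and 4 lay at 25.2, 17.8 and 20.7, and WT replicates 1 to 4 at 1.73, -13.2, -12.4 and -19.7. The library labelled SIRT5F101L replicate 1 was thus beside WT replicate 4 on this axis. Regressing log2 CPM on the log2 length of the transcripts gave a slope that ordered the libraries nearly alike, with SIRT5F101L replicates 2 and 4 exchanged. The slope was 0.586 in SIRT5F101L replicate 1, 0.736, 0.726 and 0.748 in replicates 2 to 4, and 0.697, 0.624, 0.647 and 0.609 in WT replicates 1 to 4. Higher slopes mean that long transcripts took a larger share of the counts. Results are therefore given with and without this library, or beside its own level. Because it was singled out by its measured expression, p-values without it are too small, and they are read here beside the level of replicate 1 itself.

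Sirt5, the gene carried on the plasmids, was scarcely detected. WT replicates 1 to 4 held 9, 9, 8 and 1 counts, and SIRT5F101L replicates 1 to 4 held 9, 19, 15 and 10. In CPM the level was 0.384 ± 0.229 (SD, n = 4) in WT and 0.721 ± 0.346 (SD, n = 4) in SIRT5F101L. The exact 2-sided permutation test gave p = 0.0857, where 0.0286 is the smallest p that 4 against 4 allows. Leaving out replicate 1 gave 0.801 ± 0.376 CPM (SD, n = 3) and the same exact p of 0.0857, adjusted over both tests to 0.0857. Control libraries held 9 to 16 counts, so neither plasmid group showed a raised Sirt5 count at this depth. Near-identical sequence elsewhere in the genome covers 43% of its longest transcript. The counts do not tell the endogenous gene from a plasmid copy, and they give no check of which plasmid a library received.

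With all 8 libraries, 6 genes differed between SIRT5F101L and WT at an adjusted p under 0.05 in edgeR's quasi-likelihood test, which is 0.0421% of the genes tested. Jarid2, Gm19951, ENSMUSG00000119584 and Vcam1 were higher in SIRT5F101L, and Col11a2 and Gnas were lower. At an unadjusted p under 0.05 there were 1701 genes, those 6 included. In 573 genes, 4.02% of those tested, the 4 SIRT5F101L libraries did not overlap the 4 WT libraries. Of the 6 called genes, 3 did not overlap: Col11a2, Gnas and Vcam1. In the other three, SIRT5F101L replicate 1 lay within the WT range.

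Col11a2 encodes a chain of type XI collagen, which nucleates cartilage fibrils. It stood at 26.3, 28.3, 24.5 and 25.1 CPM in WT replicates 1 to 4 and at 16.7, 14.9, 17.8 and 17.8 CPM in SIRT5F101L replicates 1 to 4. All 4 mutant libraries, replicate 1 included, were below all WT libraries. This was a log2 fold change of -0.63 ± 0.10 (SE), with an adjusted p of 0.034 in edgeR, and without replicate 1 it was -0.62 ± 0.10.

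Gnas encodes the stimulatory G protein alpha subunit, which carries parathyroid hormone-related protein signals in cartilage. It was at 26.2, 28.8, 29.7 and 28.1 CPM in WT and at 21.7, 20.2, 20.3 and 20.4 CPM in SIRT5F101L. The groups did not overlap, and replicate 1 was the mutant library nearest to WT. Its log2 fold change was -0.45 ± 0.07 (adjusted p = 0.034, edgeR). Other genes overlap 22% of its exon sequence, so part of its counts may belong to them.

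Vcam1 encodes a surface adhesion molecule that inflammatory cytokines induce. Its level was 43.4, 41.8, 44.4 and 42.9 CPM in WT and 54.5, 62.2, 56.2 and 52.3 CPM in SIRT5F101L. Each mutant library was above each WT library. Its log2 fold change was 0.38 ± 0.07 (adjusted p = 0.044, edgeR), and 0.40 ± 0.07 without replicate 1.

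Jarid2, a cofactor of Polycomb repressive complex 2, behaved differently. It was at 63.5, 71.5, 64.0 and 86.1 CPM in WT, at 74.9 CPM in SIRT5F101L replicate 1 and at 256, 170 and 197 CPM in replicates 2 to 4. Replicate 1 lay inside the WT range and the other mutant libraries lay far above it. Gm19951, a predicted gene, followed the same order, with 19.8 to 31.1 CPM in WT, 27.3 CPM in replicate 1 and 156, 65.7 and 90.9 CPM in replicates 2 to 4. ENSMUSG00000119584, for which the name tables used here give no symbol, was at 2123 to 3156 CPM in WT, at 3074 CPM in replicate 1 and at 5443 to 6430 CPM in the others. The log2 fold changes with all 8 libraries were 1.29 ± 0.22, 1.78 ± 0.32 and 0.99 ± 0.16 (adjusted p = 0.044, 0.045 and 0.034, edgeR).

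The 6 calls did not outlast the loss of single libraries. Leaving out 1 library left 0 genes called in edgeR for 10 of the 12, with 945 to 2191 genes at an unadjusted p under 0.05. Leaving out Control replicate 2 gave 3 calls, of which Col11a2 and Gnas were among the 6 and Acan was not. Leaving out SIRT5F101L replicate 1 raised the number to 2213, and all 6 were among them.

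Without SIRT5F101L replicate 1, 2213 of 14528 genes were called in edgeR (15.2%), 967 higher (6.66%) and 1246 lower (8.58%) in SIRT5F101L. Most differences were small. The median size among called genes was 0.30 on the log2 scale, 1.23-fold, and 1850 of them (83.6%) were under 0.5. Only 69 reached 2-fold, 37 higher and 32 lower. The 3 mutant libraries did not overlap the 4 WT libraries in 3604 genes, 24.8% of those tested.

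SIRT5F101L replicate 1 followed few of these calls. It was beyond the WT range on the same side as the other mutant libraries for 201 of the 2213 genes (9.08%), within the WT range for 1108 (50.1%) and beyond it on the opposite side for 904 (40.8%). Over all 14528 genes the shares were 17.2%, 57.2% and 25.6%. The list counts that follow are from the fit without replicate 1 unless stated otherwise. In the first comparison, with all 8 libraries, 26 of the 30 lists had no called gene, and 4 had 1 each: cartilage collagens (Col11a2), adhesion molecules (Vcam1), PTHrP and G protein genes (Gnas) and Polycomb repressive complex 2 (Jarid2). Every other list member named below missed the threshold there. Called genes whose replicate 1 lay on the same side are described first. That side concerns replicate 1 only, and another mutant library can still overlap WT, as for Dcn below.

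Cartilage collagens were lower in SIRT5F101L. Of 8 genes in the list 7 were tested, all 7 had a fold change below 0, and 4 were called lower without replicate 1, where 8.58% of all genes were: Col11a2, Col9a1, Col2a1 and Col9a2. Of the 7, Col11a2 alone was called with all 8 libraries. Their median log2 fold change was -0.36, and -0.34 with all 8 libraries, against 0.00 over all genes tested. Replicate 1 was below every WT library for all 4 called genes.

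Col2a1, the main fibrillar collagen of cartilage, was at 1594, 1663, 1731 and 1672 CPM in WT and at 1357, 1214, 1255 and 1423 CPM in SIRT5F101L. The groups did not overlap. Its log2 fold change was -0.34 ± 0.07 with all libraries, which was not called (adjusted p = 0.13, edgeR), and -0.36 ± 0.07 without replicate 1 (adjusted p = 0.0011). Col9a1, a chain of the type IX collagen that decorates those fibrils, was at 8.44, 9.75, 9.47 and 7.92 CPM in WT and at 7.16, 5.39, 6.26 and 5.33 CPM in SIRT5F101L. Again no mutant library reached the lowest WT library. Col9a2, another chain of it, was at 3.50 to 5.64 CPM in WT, at 3.42 CPM in replicate 1 and at 3.05, 2.05 and 2.32 CPM in the others.

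Aggrecan (Acan), the proteoglycan that holds water in cartilage, moved with the collagens. It was at 190, 177, 188 and 183 CPM in WT and at 137, 138, 141 and 155 CPM in SIRT5F101L, with no overlap. The log2 fold change was -0.37 ± 0.07 with all libraries (adjusted p = 0.094, edgeR) and -0.35 ± 0.07 without replicate 1 (adjusted p = 0.00099). In the proteoglycan and matrix protein list 3 of 20 tested genes were lower, 1 was higher and 16 were not called, with a median of -0.07. That is 20% called, against 15.2% of all genes. Ucma, a secreted protein of the growth plate cartilage, was lower only in replicates 2 to 4, at 1.95, 2.65 and 1.47 CPM against 3.19 to 4.23 CPM in WT and 4.17 CPM in replicate 1. Dcn, which encodes decorin, was the higher one, at 1049 to 1254 CPM in WT and 1207 to 1443 CPM in SIRT5F101L.

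**Figure D1:**
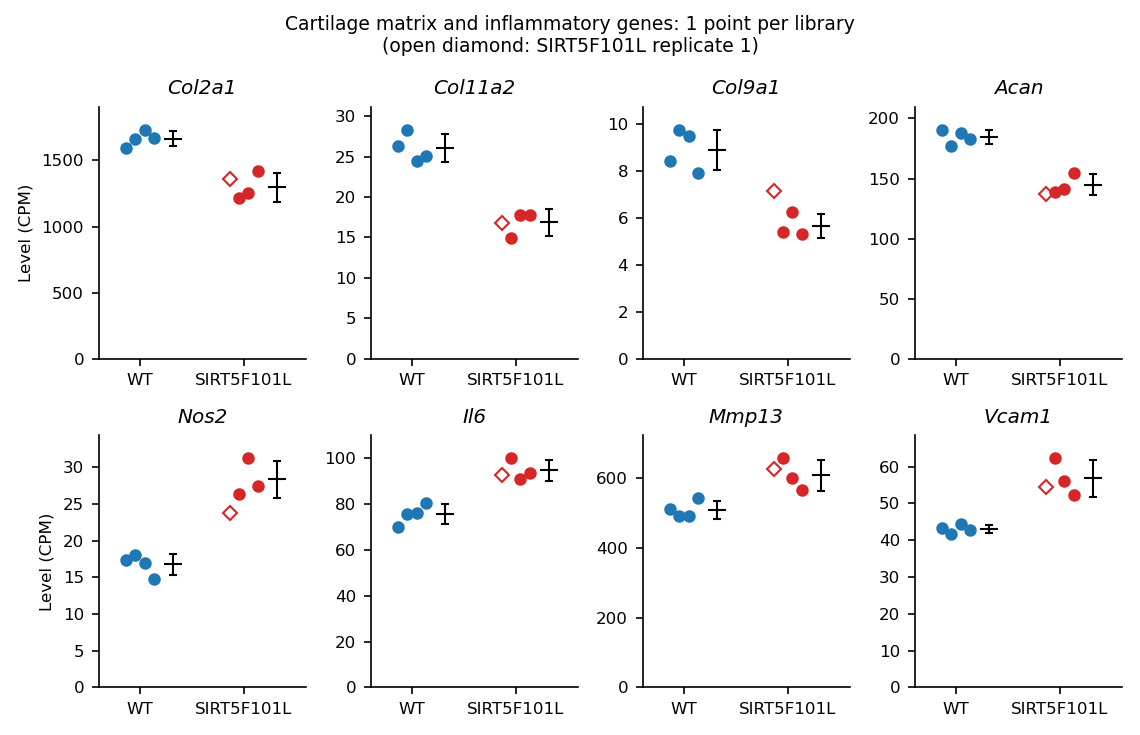
Levels of 8 genes in CPM (vertical axes, from 0) in the WT (blue) and SIRT5F101L (red) libraries, 1 point per library. The open diamond is SIRT5F101L replicate 1, and the bar gives the mean and SD over the WT libraries or over SIRT5F101L replicates 2 to 4. In each of the 8 genes the diamond lies on the same side of the WT libraries as the other mutant points: below them for Col2a1, Col11a2, Col9a1 and Acan, above them for Nos2, Il6, Mmp13 and Vcam1.

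To show the regions ahead of collagen genes that were lower together, the 250 bases before the annotated start of 2 of them are printed from the RefSeq promoter table (build GRCm38.p6). These genes were chosen for this after their values were seen. Col2a1 and Vcam1 have no entry there, and Col9a1 has 2 starts. Capitals mark the GC box, GGGCGG on either strand.
Col11a2, chr17:34038888-34039137, plus strand: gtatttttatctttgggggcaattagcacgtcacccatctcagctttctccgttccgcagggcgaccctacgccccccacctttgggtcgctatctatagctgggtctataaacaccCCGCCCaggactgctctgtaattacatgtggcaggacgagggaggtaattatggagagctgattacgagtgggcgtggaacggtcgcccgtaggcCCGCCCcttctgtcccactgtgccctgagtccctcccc
Col9a2, chr4:121039316-121039565, plus strand: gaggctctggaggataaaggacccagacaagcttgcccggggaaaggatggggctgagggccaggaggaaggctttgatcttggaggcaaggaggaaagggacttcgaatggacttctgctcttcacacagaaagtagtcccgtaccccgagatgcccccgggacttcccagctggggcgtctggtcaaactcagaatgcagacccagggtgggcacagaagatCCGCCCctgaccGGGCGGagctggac

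Each of these windows held 2 GC boxes, and the windows of Col9a1, which are not printed, held 0. The GC box was found in 32.7% of 32851 promoter windows of the same length. The core of the SOX motif, AACAAT on either strand, was in none of the 4 collagen windows and in 9.42% of all windows. A search planned beforehand, for the NF-kB type motif GGGNTTNCC on either strand, found 0 matches in the promoters of Icam1 and Cxcl1. That motif was in 4.66% of all promoters. Vcam1 and Ccl5, also planned, have no entry. These counts describe the letters in the windows.

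Some genes of inflammation and matrix breakdown were also apart from WT in all 4 mutant libraries. In the list of cytokines and inflammatory mediators, 3 of 21 tested genes were called higher without replicate 1 and 0 lower, a share of 14.3% against 15.2% of all genes, so the list as a whole was called no more often than other genes. The called ones were Nos2, Il6 and Lif, and replicate 1 was above every WT library for each. The median of the list was 0.11, and 0.18 with all 8 libraries.

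Nos2, the inducible nitric oxide synthase, was at 17.4, 18.0, 17.0 and 14.8 CPM in WT and at 23.8, 26.4, 31.2 and 27.4 CPM in SIRT5F101L. It did not overlap between the groups. The log2 fold change was 0.70 ± 0.16 with all libraries (adjusted p = 0.14, edgeR) and 0.76 ± 0.14 without replicate 1 (adjusted p = 0.00028). Il6, the interleukin 6 gene, was at 69.8, 75.6, 76.3 and 80.3 CPM in WT and at 92.5, 99.9, 90.8 and 93.5 CPM in SIRT5F101L. Here replicate 1 sat among the other mutant libraries. Lif, an interleukin 6 family cytokine, was at 54.2 to 66.1 CPM in WT and at 70.3 to 80.3 CPM in SIRT5F101L. Il6 and Lif had log2 fold changes of 0.32 and 0.27 with all 8 libraries, and adjusted p of 0.14 and 0.24 (edgeR).

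Both plasmid groups were far above Control for Nos2 and Il6. Against the same 4 Control libraries, Nos2 was higher by 6.07 on the log2 scale in WT and by 6.77 in SIRT5F101L, and Il6 by 5.50 and 5.82. Nos2 averaged 0.245 CPM and Il6 1.67 CPM in Control. Other genes higher in SIRT5F101L than in WT were below Control in both groups: Vcam1 at -0.77 in WT and -0.39 in SIRT5F101L, Postn at -3.70 and -3.31, and Egr1 at -0.60 and -0.26.

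Of 34 tested matrix proteases, 6 were called higher and 2 lower without replicate 1, with a median of 0.06. Their share of calls was 23.5%, against 15.2% of all genes. Mmp13, the main collagenase of cartilage, was at 512, 490, 490 and 543 CPM in WT and at 627, 656, 600 and 565 CPM in SIRT5F101L. All mutant libraries were above all WT libraries, replicate 4 by the least. The log2 fold change was 0.27 ± 0.07 with all libraries (adjusted p = 0.24, edgeR) and 0.26 ± 0.07 without replicate 1 (adjusted p = 0.0080). Mmp2, a gelatinase, was at 58.4 to 64.3 CPM in WT and 66.7 to 73.8 CPM in SIRT5F101L. Adamts5, an aggrecanase, was at 184 to 211 CPM in WT, 204 CPM in replicate 1 and 229 to 232 CPM in replicates 2 to 4. Its replicate 1 lay inside the WT range, so it belongs to the larger set described further on. Among 12 tested protease inhibitors 3 were lower, Serpinh1, Cstb and Cst3, and none of them had replicate 1 on the same side.

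Several single genes with other roles were also apart in all 4 mutant libraries. Postn, the matrix protein periostin, was at 17.2 to 20.2 CPM in WT and 23 to 28.3 CPM in SIRT5F101L. Grem1, a secreted antagonist of bone morphogenetic proteins, was at 1758 to 1876 CPM in WT and 2108 to 2273 CPM in SIRT5F101L. Egr1, an immediate-early transcription factor, was at 123 to 149 CPM in WT and 156 to 188 CPM in SIRT5F101L. Their log2 fold changes without replicate 1 were 0.40 ± 0.08, 0.28 ± 0.06 and 0.38 ± 0.06 (adjusted p = 0.0012, 0.00084 and 9.2e-05, edgeR). With all 8 libraries none of the 3 was called (adjusted p = 0.094, 0.094 and 0.11). Pcsk5, a proprotein convertase, and H19, an imprinted noncoding RNA, were chosen for mention after their values were seen. Pcsk5 was at 58.0 to 60.5 CPM in WT and 66.7, 81.1, 80.6 and 85.4 CPM in SIRT5F101L. H19 was at 74.3 to 84.4 CPM in WT and 71.1, 59.5, 61.0 and 58.0 CPM in SIRT5F101L. Both had an adjusted p of 0.094 with all 8 libraries (edgeR).

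The slope on transcript length was used as a covariate in a further fit of all 8 libraries with the controls. In this fit 25 genes were called in edgeR (0.175% of those tested), 19 higher and 6 lower, and the 6 genes of the first comparison were among them. Of the 25 genes, 15 did not overlap between the groups and 18 were also called without replicate 1. The cartilage genes Col11a2 (-0.64), Acan (-0.41) and Col2a1 (-0.33) were lower on the log2 scale. Among the higher genes were Mmp3 (0.38), S100a8 (0.47), Vcam1 (0.37), Saa3 (0.33), Cxcl1 (0.30), Cd14 (0.35), Ccl7 (0.35), Il6 (0.33), Mmp13 (0.29), Nos2 (0.62) and Lcn2 (0.33). Called here were 5 of 21 cytokines and mediators, 2 of 17 chemokines, 2 of 34 matrix proteases and 1 of 28 adhesion molecules. Of 24 NF-kB subunits and inhibitors, 41 interferon-stimulated genes and 15 MHC class I genes, 0 were called. Vcam1, Il6, Nos2 and Mmp13 are named by the rule for named genes, and the other seven were picked after their values were seen. With the length offset in place of the covariate 20 genes were called (0.14%), and Mmp3, Vcam1, Il6 and Nos2 were the ones of these 11 that were called.

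These genes fell into different patterns by library. Mmp3, the protease stromelysin, was at 1421, 1470, 1496 and 1749 CPM in WT and at 2109, 1889, 1791 and 1740 CPM in SIRT5F101L. Only SIRT5F101L replicate 4 entered the WT range. Cxcl1, a chemokine for neutrophils, was at 170, 164, 170 and 167 CPM in WT and at 232, 200, 178 and 172 CPM in SIRT5F101L. Every mutant library was above every WT library, and replicate 1 was the highest.

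Saa3, an acute-phase protein, was at 252, 348, 293 and 332 CPM in WT and at 476, 283, 272 and 255 CPM in SIRT5F101L. It was high in replicate 1 alone, and without that library its log2 fold change was -0.18. S100a8, a calcium-binding protein of myeloid and inflamed cells, was at 42.6 to 56.1 CPM in WT, 80.9 CPM in replicate 1 and 46.1 to 52.9 CPM in the others. Cd14, a receptor for lipopolysaccharide, was at 47.5 to 54.7 CPM in WT, 72.8 CPM in replicate 1 and 53.3 to 57.7 CPM in the others. Without replicate 1, none of Saa3, S100a8, Cd14, Cxcl1, Ccl7 and Lcn2 was called (adjusted p = 0.15, 0.87, 0.32, 0.14, 0.087 and 0.43, edgeR). The summed level of 16 macrophage and leukocyte markers was 198 CPM in replicate 1, 153 to 165 CPM in replicates 2 to 4 and 148 to 166 CPM in WT. Of these markers 3 had no count in any WT or SIRT5F101L library and 0 of 13 tested were called in edgeR. Their part in these results was not tested.

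Genes for energy and protein production were lower in replicates 2 to 4 but not in replicate 1. Of 32 tested genes of respiratory complex I, 23 were lower and 0 higher without replicate 1, with a median log2 fold change of -0.39. Complexes II to IV and ATP synthase had 32 of 40 lower and 0 higher, with a median of -0.35. Cytosolic ribosomal proteins had 60 of 69 lower and 0 higher (median -0.36), and mitochondrial ribosomal proteins 36 of 72 lower and 1 higher (median -0.25). By comparison 8.58% of all tested genes were called lower. The 4 lists, in the order given, had 29, 38, 66 and 53 tested genes shorter than the median length of all genes. In the shortest of 5 equal bins by transcript length, 622 of 2869 genes were called lower. With the slope on length as covariate the medians were -0.04, -0.02, -0.02 and -0.02, with 0 called. That fit cannot tell slope from plasmid. With all 8 libraries the medians were -0.23, -0.19, -0.22 and -0.15, and none of these genes was called.

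In SIRT5F101L replicate 1 these sets were above the WT mean rather than below it. Its median log2 difference from the WT mean was 0.19 for complex I, against -0.41, -0.34 and -0.40 in replicates 2 to 4. For cytosolic ribosomal proteins it was 0.21, against -0.40, -0.31 and -0.43. None of the called respiratory genes had replicate 1 on the same side as the others. The WT libraries also differed among themselves, from -0.18 in WT replicate 1 to 0.13 in WT replicate 4 for complex I and from -0.18 to 0.17 for the ribosomal proteins. Ribosomal protein genes took 3.21%, 3.81%, 3.41% and 3.98% of all counts in WT replicates 1 to 4, 4.06% in SIRT5F101L replicate 1 and 2.85%, 2.97% and 2.71% in replicates 2 to 4.

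Atp5k, a small subunit of ATP synthase, was at 29.8, 49.3, 41.9 and 44.3 CPM in WT, at 49.9 CPM in SIRT5F101L replicate 1 and at 12.5, 20.1 and 18.8 CPM in replicates 2 to 4. Replicate 1 was the highest of the 8 libraries and replicates 2 to 4 the lowest. The log2 fold change was -1.25 ± 0.14 without replicate 1 (adjusted p = 8.6e-07, edgeR) and -0.70 ± 0.27 with it (adjusted p = 0.37). Ndufa2, an accessory subunit of complex I, was at 67.7, 99.8, 80.1 and 97.9 CPM in WT, 109 CPM in replicate 1 and 38.1, 57.3 and 53.3 CPM in the others. Cox5b, of cytochrome oxidase, was at 110 to 141 CPM in WT, 139 CPM in replicate 1 and 72.1 to 84.8 CPM in the others. Rps28, of the small ribosomal subunit, was at 247, 355, 301 and 325 CPM in WT, 376 CPM in replicate 1 and 123, 169 and 150 CPM in the others. In each of these genes SIRT5F101L replicates 2 to 4 were the lowest of the 8 libraries.

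**Figure D2:**
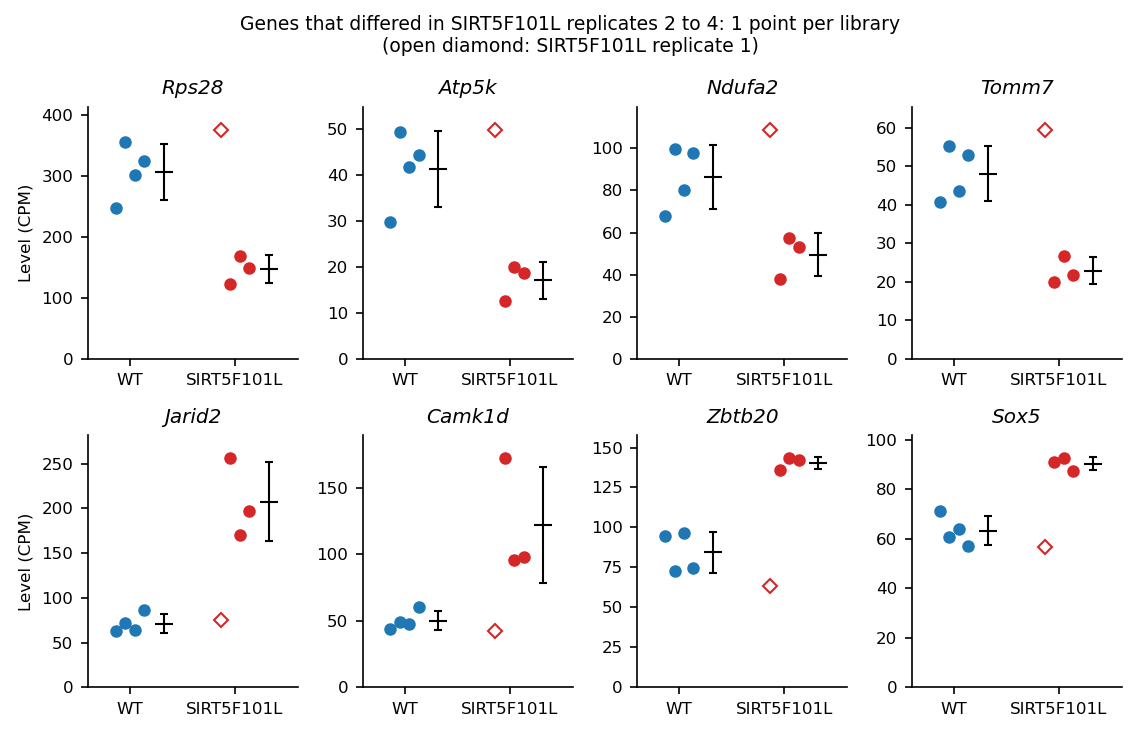
Levels of 8 genes in CPM (vertical axes, from 0) in the WT (blue) and SIRT5F101L (red) libraries, 1 point per library, with the mean and SD over the WT libraries or over SIRT5F101L replicates 2 to 4. The open diamond, SIRT5F101L replicate 1, lies within the WT points, or beyond them on the far side from the other mutant points, in all 8 genes.

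Among genes called without replicate 1 that averaged 5 CPM or more, had an established symbol and did not overlap between the groups, the 12 with the lowest fold changes were short, with transcripts of 195 to 1831 nucleotides (nt). They were Naa38, Atp5k, Gpx1, Rps29, Tomm7, Rps28, Pet100, Tma7-ps, H2afj, Pold4, Ndufs5 and Rpl13a, at log2 fold changes of -1.25 to -0.93. For none of them was replicate 1 on the same side as the other mutant libraries. Gpx1, a glutathione peroxidase, was at 3.95 to 8.32 CPM in WT, 7.0 CPM in replicate 1 and 2.27 to 3.53 CPM in the others. Tomm7, of the import channel of the outer mitochondrial membrane, was at 40.7 to 55.2 CPM in WT, 59.4 CPM in replicate 1 and 20.0 to 26.8 CPM in the others. Near-identical stretches of other genes' transcripts, overlapping genes included, cover 100% of the transcript of Tma7-ps, 72.5% of Pet100, 60.7% of Rpl13a and 46.9% of Ndufs5. They cover 34.3% of Rps29, 32.3% of Pold4, 31.3% of Atp5k and 24.1% of Naa38, so the counts of these genes are uncertain. Other genes overlap 52.6% of the exon sequence of Pet100, 35.4% of Rpl13a, 34.4% of Naa38 and 24.6% of Pold4. Near-identical stretches also cover 45.1% of the transcript of Cox5b.

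In the same selection, the 12 genes with the highest fold changes were Jarid2, Lars2, Camk1d, Tmtc2, Lrmda, Lncpint, Sspn, Arhgap21, Nos2, Zbtb20, Ifi211 and Gphn, at 0.72 to 1.54. In this group Nos2 alone had replicate 1 on the same side. Lars2, the mitochondrial leucyl-tRNA synthetase, was at 162, 196, 218 and 294 CPM in WT, 195 CPM in replicate 1 and 574, 461 and 568 CPM in the others. Camk1d, a calmodulin-dependent kinase, was at 43.9 to 60.1 CPM in WT, 42.4 CPM in replicate 1 and 172, 95.5 and 98.1 CPM in the others. Zbtb20, a zinc finger transcription factor, was at 72.8 to 96.6 CPM in WT, 63.2 CPM in replicate 1 and 136 to 143 CPM in the others. Near-identical copies cover 93.8% of the transcript of Ifi211, so its count is uncertain.

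Among 21 tested chondrogenic transcription factors, 9 were called higher and 1 lower without replicate 1, and 11 were not called. Over all genes 6.66% were called higher and 8.58% lower. The median transcript of the list was 5861 nt. In the longest of 5 equal bins by transcript length, 630 of 2869 genes were called higher. None of the 21 was called in edgeR with all 8 libraries, where their median was 0.09. For all 10 called factors replicate 1 was beyond the WT range on the opposite side. Sox5, a partner of Sox9, was at 71.1, 60.6, 63.9 and 57.3 CPM in WT, 56.6 CPM in replicate 1 and 91.0, 92.5 and 87.4 CPM in the others. Runx2, a driver of chondrocyte hypertrophy, was at 36.7 to 47.8 CPM in WT, 34.1 CPM in replicate 1 and 55.5 to 56.1 CPM in the others. Sox9 itself, the master factor of the lineage, was at 125, 128, 123 and 119 CPM in WT and at 101, 115, 109 and 127 CPM in SIRT5F101L. In replicate 1 it was below the WT range, its groups overlapped through replicate 4, and it was not called in either comparison (adjusted p = 0.42 and 0.37, edgeR).

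The lists of sirtuins and malonyl-CoA enzymes, glycolysis, the tricarboxylic acid cycle and fatty acid oxidation were called at shares of 8.33% to 19.2%. The share over all genes was 15.2%, and the respiratory lists above were at 71.9% and 80%. Among 18 sirtuins and malonyl-CoA enzymes, 2 were lower without replicate 1. Mlycd, which degrades malonyl-CoA, was at 15.5 to 19.5 CPM in WT, 15.7 CPM in replicate 1 and 11.8 to 14.6 CPM in the others. Sirt7, a nuclear sirtuin, was at 36.6 to 43.8 CPM in WT, 38.8 CPM in replicate 1 and 31.9 to 35.8 CPM in the others. In both genes replicate 1 lay inside the WT range.

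Glycolysis and sugar transport had 4 genes lower and 1 higher of 26, the tricarboxylic acid cycle 2 lower and 1 higher of 31, and fatty acid oxidation 2 lower of 24, with medians of -0.05, -0.02 and -0.09. Eno3, an enolase, was the gene of these lists with the lowest p of its list and replicate 1 on the same side, at 35.2 to 43.8 CPM in WT and 34.4, 29.3, 26.8 and 30.0 CPM in SIRT5F101L. Acadm, which oxidises medium-chain fatty acids, was at 40.7 to 47.2 CPM in WT, 47.2 CPM in replicate 1 and 35.4 to 39.1 CPM in the others. Antioxidant genes had 6 of 26 lower and 1 higher (median -0.08), 26.9% called against 15.2% of all genes. Sod1, a superoxide dismutase, was at 79.7 to 94.9 CPM in WT, 96.6 CPM in replicate 1 and 57.2 to 63.7 CPM in the others.

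Signalling lists were mixed, and their counts stand against 6.66% of all genes called higher and 8.58% lower without replicate 1. PTHrP, hedgehog and G protein genes had 8 of 20 higher and 1 lower (median 0.18), TGF-beta and BMP genes 6 of 34 higher and 2 lower (median 0.14), and adhesion molecules 7 of 28 higher and 2 lower (median 0.07). Their medians with all 8 libraries were 0.11, 0.10 and 0.03, and the only calls were Gnas, lower, and Vcam1, higher. Without replicate 1, the slope on length as covariate gave medians of 0.02, -0.02 and -0.01 with 0 called. That fit cannot tell slope from plasmid. The length offset gave medians of 0.03, 0.06 and -0.01, with 2, 3 and 5 called. Pde4d, which degrades cyclic AMP, was at 119, 94.5, 92.0 and 90.6 CPM in WT, 91.0 CPM in replicate 1 and 133 to 142 CPM in the others. Id1, a target of BMP signalling, was at 151 to 166 CPM in WT, 163 CPM in replicate 1 and 122 to 136 CPM in the others. NF-kB subunits and inhibitors had 3 of 24 higher, Rel, Nfkbiz and Nfkb1, each with replicate 1 inside the WT range. Chemokines had 1 of 17 lower: Ccl5, at 422 to 499 CPM in WT, 519 CPM in replicate 1 and 399 to 419 CPM in the others. Interferon-stimulated genes had 5 higher and 5 lower of 41 and MHC class I genes 2 lower of 15.

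The remaining lists are given by count, against 6.66% of all genes called higher, 8.58% lower and 15.2% either way. Fibroblast-type matrix had 2 of 17 higher, contractile genes 6 of 29 lower and 1 higher, and immediate-early genes 3 of 21 lower and 1 higher. Folding and unfolded protein response genes had 5 of 24 lower and 1 higher, and cholesterol genes 3 of 27 lower and 2 higher. Of cell division genes, replication had 1 of 34 lower and mitosis 1 of 28 higher. Polycomb repressive complex 2 had 3 of 9 higher: Jarid2, Suz12 and Mtf2. The shares called ran from 2.94% for replication and 3.57% for mitosis to 24.1% for contractile, 25% for folding and 33.3% for Polycomb genes, with no test of these shares.

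**Figure D3:**
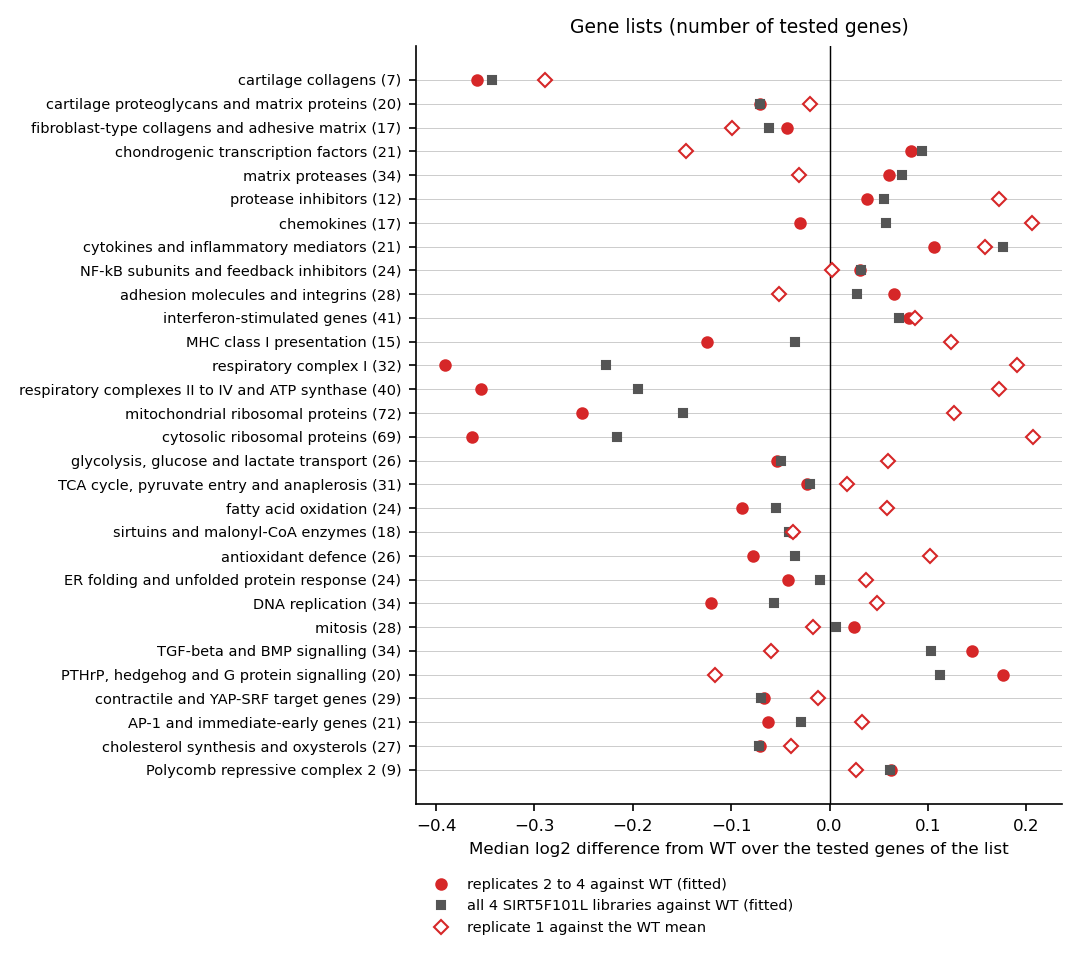
Median log2 difference from WT (horizontal axis) over the tested genes of each of 30 lists, for SIRT5F101L replicates 2 to 4 (red circles), all 4 SIRT5F101L libraries (grey squares) and replicate 1 alone against the WT mean (open diamonds). The 3 marks lie together, at -0.36, -0.34 and -0.29, for cartilage collagens, and on opposite sides of 0 for the respiratory and ribosomal lists, where replicate 1 is at 0.13 to 0.21.

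Calls followed transcript length. Called higher genes without replicate 1 had a median transcript of 6231 nt and a median gene span of 99.3 kb, called lower genes 1724 nt and 6.96 kb, and genes not called 3211 nt and 23.9 kb. In the shortest of 5 equal bins of tested genes 33 were called higher and 622 lower, and in the longest 630 higher and 32 lower. The median log2 fold change rose from -0.16 through -0.08, -0.01 and 0.04 to 0.14 across the bins. In SIRT5F101L replicate 1 the median difference from the WT mean ran the other way, from 0.10 in the shortest bin to -0.08 in the longest. The 97 higher genes with replicate 1 on the same side had a median of 4038 nt and the 104 lower ones 2324 nt. Since replicate 1 runs against the others in length, choosing genes by its side favours such medians. Lengths are those of GENCODE M21, and the gene span was examined after the calls were seen.

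**Figure D4:**
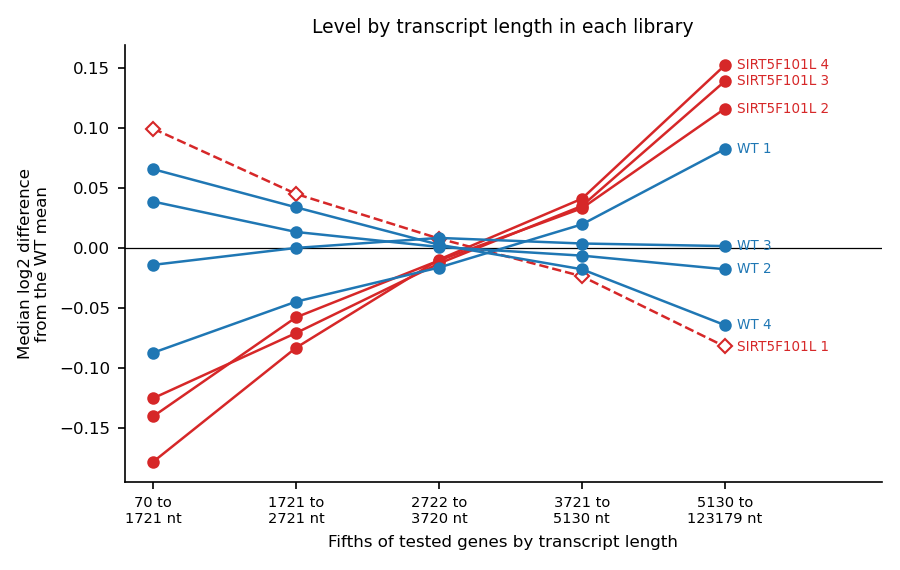
Median log2 difference from the WT mean (vertical axis) in 5 equal bins of tested genes by transcript length in nt (horizontal axis), 1 line per plasmid library. SIRT5F101L replicates 2 to 4 (red) rise from -0.18 to -0.13 in the shortest bin to 0.12 to 0.15 in the longest, while SIRT5F101L replicate 1 (dashed, open diamonds) falls from 0.10 to -0.08 and WT replicates 1 and 4 (blue) end at 0.08 and -0.06.

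With the slope on length as a covariate, the fit without replicate 1 called 10 genes in edgeR (0.0688% of those tested, 944 at an unadjusted p under 0.05), 9 higher and 1 lower, and 8 of them were among the 2213. The medians moved to -0.04 for complex I, -0.02 for cytosolic ribosomal proteins and -0.42 for cartilage collagens, of which 0 of 7 were then called. The slopes of SIRT5F101L replicates 2 to 4 did not overlap those of WT, so slope and plasmid cannot be told apart in that fit. With each library's length trend taken out as an offset, 1206 genes were called (8.3%), 336 higher and 870 lower. There 27.9% of calls were higher, against 43.7% without the offset. The medians were then -0.27 for complex I, -0.29 for cytosolic ribosomal proteins and -0.48 for cartilage collagens, of which 6 of 7 were called. Genes still called with the slope as covariate included Jarid2, Gm19951, ENSMUSG00000119584, Gphn, Sspn, Camk1d and Lars2.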

How the data were processed

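Per the submitters' processing notes, reads were handled with FastQC 0.11.9, HISAT2 2.2.1, HTSeq 2.0.2 and DESeq2 1.38.3 and the build GRCm39. The authors deposited whole-number counts per Ensembl gene ID, not normalized. The strand setting is not given in the sources used here. Of 57010 IDs, 52029 were paired with a symbol. The 4981 others held 0.377% to 0.470% of counts in WT, 0.461% in SIRT5F101L replicate 1 and 0.720% to 0.821% in replicates 2 to 4, and stayed in.

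Counts were tested with edgeR 4.0.16 in R 4.3.3, using TMM factors, its default filter and quasi-likelihood F tests on a model of group means over the 12 libraries, with 9 residual degrees of freedom (8 without replicate 1) and Benjamini-Hochberg adjustment over all genes tested, called under 0.05. The biological coefficient of variation was 9.18%. Before the TMM factors, a single count was worth 0.0413 to 0.0662 CPM, and counting error is the only error that covers. The script was tested on simulated counts. Standard errors are the log2 fold change divided by the root of F. Alternatives were upper-quartile or RLE factors, no filter, a mean CPM of 1, a robust prior, the plasmid libraries alone, DESeq2 1.42.0, length as slope covariate or loess offset (span 0.5), and leaving out each library.

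Members and 30 gene lists (888 entries, 821 tested) were chosen with earlier results of these data known. The named genes are Sirt5; the genes called with all 8 libraries; without replicate 1, the 12 highest and 12 lowest called genes of at least 5 CPM with no overlap and an established symbol; the 2 called genes of lowest p in each list; and Col2a1, Acan, Sox9, Mmp13, Adamts5 and Vcam1. Other names were chosen after their values were seen. Marker lists are 10 chondrocyte, 16 leukocyte, 8 endothelial, 9 osteoblast, 9 fibroblast, 7 adipocyte, 9 muscle and 6 erythroid genes. Outside the chondrocyte list, the edgeR fit without replicate 1 called 1 osteoblast (Runx2), 1 fibroblast (Pdgfra) and 1 adipocyte (Lpl) marker and 0 of the others (4088 genes at an unadjusted p under 0.05). Lengths, exon overlaps and copies came from GENCODE M21 (GRCm38, not the authors' build), which gave lengths for 98.8% of tested genes, so none of its coordinates are printed.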

Additional observations from a re-analysis of the deposited data

Results flagged for a closer look

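Over the WT and SIRT5F101L groups, 248 pairs of a measure and a group of 4 libraries were screened for a library far from the rest, by Dixon's gap-to-range ratio at its 95% level. Of these, 27 values stood apart, 18 of them in SIRT5F101L replicate 1. Chance flags about 1 in 20 unselected groups (12.4 of 248), but that is no yardstick here: most measures are genes chosen from the fit without replicate 1, which favours its standing apart, and the measures share libraries. No explanation was tested.

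In SIRT5F101L replicate 1 the values above the other mutant libraries were Gnas at 21.7 CPM, Ccl5 at 519 CPM, Bst2 at 479 CPM, Ndufb3 at 40.2 CPM, Mrps21 at 81.3 CPM, Sod1 at 96.6 CPM, Sdf2l1 at 64.3 CPM and Pmvk at 13.5 CPM. Those below them were Zbtb20 at 63.2 CPM, Sox5 at 56.6 CPM, Tead1 at 165 CPM and Adamts5 at 204 CPM. Among list means of log2 CPM, chemokines (4.91) and glycolysis (7.19) were high, and chondrogenic transcription factors (4.71) and TGF-beta and BMP signalling (5.58) were low. The slope on transcript length (0.586) and the first principal component (-20.2) were low in the same library.

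Elsewhere, Sirt5 was high in SIRT5F101L replicate 2, at 1.23 CPM. WT replicate 1 was low for Gphn (44.0 CPM) and Ccl5 (422 CPM), and high for Pde4d (119 CPM) and the NF-kB list (mean log2 CPM 4.86). WT replicate 2 was high for Tma7-ps (29.8 CPM) and the glycolysis list (7.16). WT replicate 4 was high for the mitosis list (4.96) and for the number of IDs with a count (19360).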

How the results depend on the processing

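With all 8 libraries, 6 genes were called in the main fit and also under RLE or upper-quartile scaling, 4 with a mean CPM filter, 2 with a robust prior, 2 with the plasmid libraries alone (1 of the 6, Col11a2), 354 without an expression filter (117 higher, 237 lower), 44 with DESeq2, 25 with the length slope as covariate and 20 with the length offset. Leaving out 1 library gave 0 to 2213 calls. Without SIRT5F101L replicate 1, the 2213 calls became 2132 to 2409 under other scalings, filters, priors, the plasmid libraries alone or DESeq2, 1206 with the offset and 10 with the slope covariate; leaving out 1 more library gave 1413 (WT replicate 2) to 2882 (WT replicate 1). Of 96 named genes called without replicate 1, 7 stayed called with the slope covariate, 85 did not pass and 4 changed sign: Col12a1 (-0.19), Adam19 (-0.0069), Ccl5 (0.0399) and Nfkbiz (-0.0452, log2). With all 8 libraries Bst2 changed sign under that covariate, to 0.0678. The offset kept 81 of the 96 called. The cause of these changes was not tested. Where leaving out libraries thinned a group, it was assumed to vary like the other groups. No paired analysis was possible because the labels give the groups no shared replicate numbers. Genes with few counts, such as Sirt5 at 1 to 19, are limited by depth.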
